A study of Mus musculus with 8 samples.

Results

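The genes described here are 10 enzymes of antioxidant defence, most of them known targets of the transcription factor NRF2: Nqo1, Hmox1, Gclc, Gclm, Gsr, Txnrd1, Sod1, Sod2, Sod3 and Gpx3. They were taken by name, and every array probe whose current or older symbol matched one of them was read. The probe table held 10 probes for 9 of the 10 genes, with 2 for Nqo1 and 1 for each of the other genes, and no probe was named for Gsr. The 9 genes were among 16593 genes with a named probe on the array. All 9 had a probe that passed the detection filter, which left 9758 genes for the tests.

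The samples were preadipocytes from mouse white adipose tissue, differentiated in culture and harvested for total RNA on days 3, 5, 7 and 9. Irf3-knockout cells were set against wildtype cells, so that 8 Illumina bead arrays held each condition once and no condition had a replicate. Irf3 encodes a transcription factor of the innate immune response that drives interferon genes. All cultures shared a medium with insulin and sodium ascorbate, itself an antioxidant, and the labels record no further treatment. The strain, sex and age of the animals, the number of animals or cultures per genotype, and the part of Irf3 that was deleted are not given in the sources used here. The 4 days of a genotype may come from 1 culture, so the p-values below measure only the spread between these arrays.

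In resting cells the adaptor KEAP1 delivers NRF2, the product of Nfe2l2, to a ubiquitin ligase built on CUL3. Oxidants and electrophiles modify KEAP1, and NRF2 then accumulates and binds, with small MAF proteins, to antioxidant response elements in DNA. BACH1 is a repressor that occupies many of the same elements. Targets of NRF2 make glutathione, recycle thioredoxin, reduce quinones and break down heme. Superoxide dismutases turn superoxide into hydrogen peroxide, which glutathione peroxidases and catalase remove. In fat cells this system meets the oxidants that mitochondria make while lipid is stored and burned.

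Promoter sequences from RefSeq, on build GRCm38.p6, were matched for 6 of the 10 genes in 8 windows of 300 bases, each with 250 bases before an annotated transcript start. They are shown because the antioxidant response element is the letter pattern by which NRF2 targets are usually recognised. The pattern TGACNNNGC was searched on both strands, and it was found once each in a window of Gclm, Txnrd1 and Sod1, and not in the windows of Nqo1, Sod2 or Gpx3. Each match lay on the strand opposite to the gene, so that it reads GCNNNGTCA on the printed strand. The stretches of 61 bases below run 5′ to 3′ on the + strand, which is the strand of all 3 genes, and capitals mark the match.
Gclm, chr3:122245397-122245457: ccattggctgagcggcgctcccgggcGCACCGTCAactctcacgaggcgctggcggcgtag
Txnrd1, chr10:82859088-82859148: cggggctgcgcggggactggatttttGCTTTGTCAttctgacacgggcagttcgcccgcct
Sod1, chr16:90220680-90220740: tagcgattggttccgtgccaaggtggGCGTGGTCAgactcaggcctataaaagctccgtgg
The match lay 134 to 126 bases before the start in Gclm, 92 to 84 bases before it in Txnrd1 and 56 to 48 bases before it in Sod1. For Txnrd1 it was in 1 of the 3 windows of that gene. Among all 32851 windows of the table, 12.4% held the pattern, so a match is a description of these letters and not a bound site.

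Intensities are given on a log2 scale after background correction and quantile normalization. Because probes differ in how strongly they bind, the level of one gene is not set against that of another. A probe counted as above background on an array where its deposited detection p was under 0.05. The share of all probes above background ran from 47.6% to 52.2% per array, and the mean raw intensity from 638 to 1026. The value of 638 was that of the wildtype array of day 3, and the next lowest was 891, on wildtype day 9. All 11 measured preadipocyte and fibroblast markers were above background on every array, and 12 of 16 mature adipocyte markers rose with day. Of the marker lists for the cells such cultures may hold, all 17 measured macrophage genes and 15 of 16 mature adipocyte genes had a positive mean difference between knockout and wildtype, and all 16 measured genes of the type I interferon response had a negative one. Irf3 itself, on its brightest probe, differed by -0.50 ± 0.17 (SE, 4 daily differences; limma adjusted p = 0.166), and since the deleted part is unknown this does not check the labels. Its other probes, ILMN_1229320 and ILMN_1224505, averaged 7.60 and 8.67 in knockout and 8.21 and 8.98 in wildtype. Each Irf3 probe was above background on all 8 arrays. In a bulk culture, fewer cells of a type and less RNA per cell cannot be told apart.

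None of the 9 measured genes differed between the genotypes at a limma adjusted p under 0.05, where 4.85% of all 9758 tested genes did. Hmox1, Sod1 and Sod3 came nearest, with the first pair higher and Sod3 lower in knockout on each of the 4 days. The fit took the 4 daily differences between knockout and wildtype as repeats, with day as a factor and 3 residual degrees of freedom. At an unadjusted p under 0.05, 3 of the 9 passed, against 20.3% of all tested genes: 2 were higher in knockout (10.7% of all tested genes) and 1 was lower (9.57%). Higher in knockout on all 4 days were 3 of the 9 (Hmox1, Sod1 and Gpx3), against 13.8% of all tested genes, and lower on all 4 days was 1 of the 9 (Sod3), against 13%. No gene of the 9 had every knockout array above every wildtype array or the reverse, against 2.31% and 3.52% of all tested genes. The median difference of the 9 genes was 0.15, with 6 of 9 above 0, against a median of -0.02 over all tested genes, of which 47.2% were above 0.

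**Figure D1:**
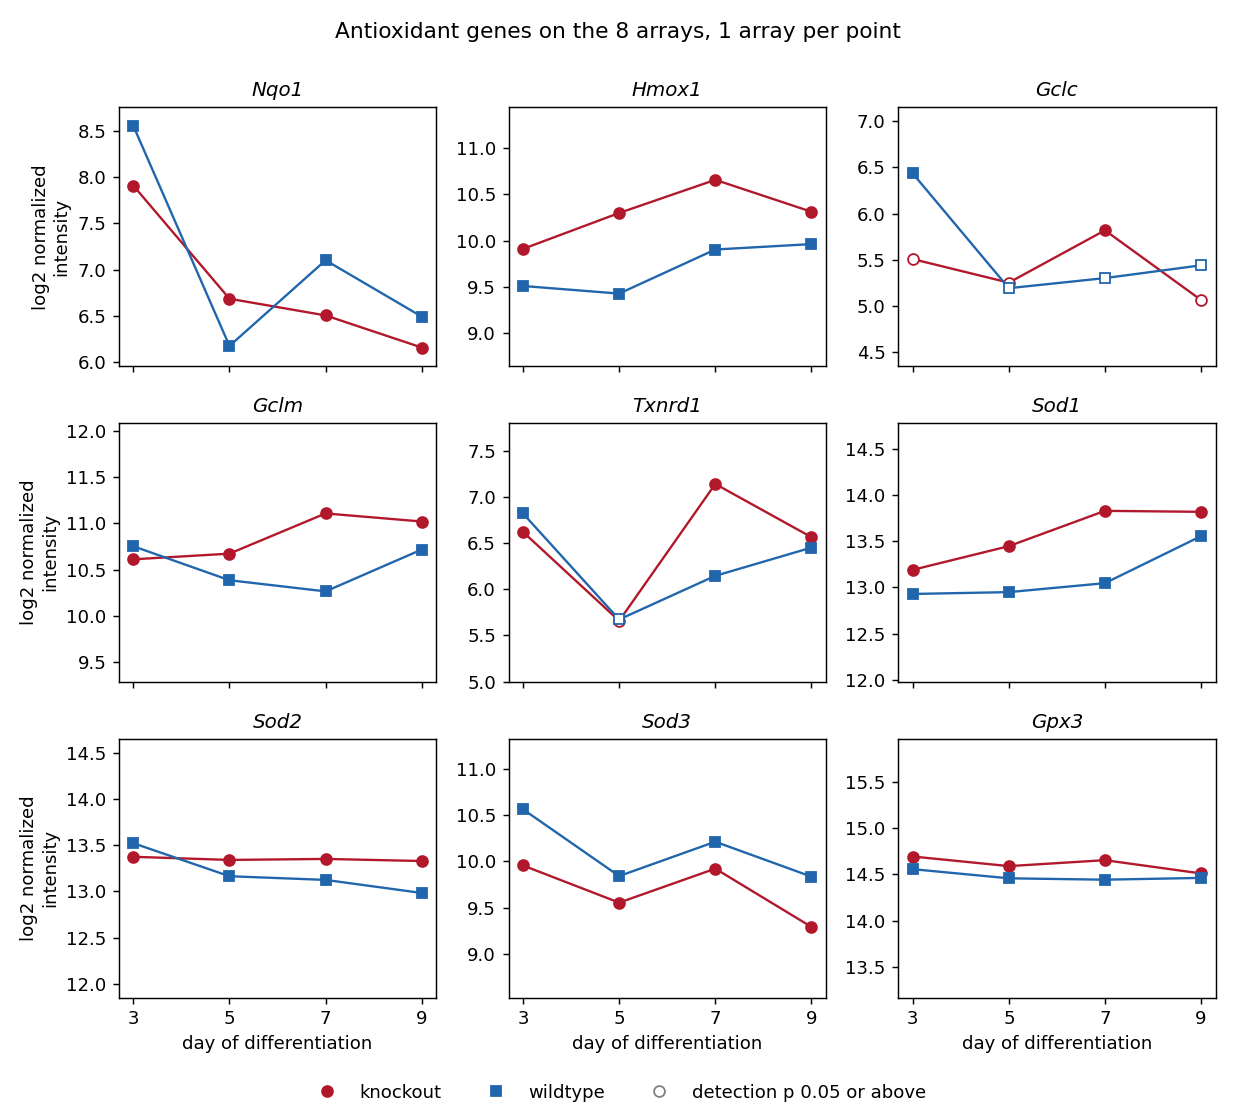
Log2 normalized intensity of the 9 measured genes (1 panel each) against day of differentiation, knockout as red circles and wildtype as blue squares, 1 array per point; open symbols mark a detection p of 0.05 or above. All panels span the same number of log2 units. Hmox1 and Sod1 lie higher and Sod3 lower in knockout on all 4 days, and the first probe of Nqo1 drops after day 3 in both genotypes.

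Hmox1 encodes the inducible heme oxygenase, which splits heme into biliverdin, carbon monoxide and iron. In knockout cells its log2 intensity was 9.91, 10.30, 10.66 and 10.31 on days 3, 5, 7 and 9, and in wildtype cells 9.51, 9.43, 9.90 and 9.96. Every knockout value was above the wildtype value of its day, and the ranges overlapped only between knockout day 3 and wildtype day 9. The daily differences of Hmox1 were 0.40, 0.87, 0.75 and 0.35, widest on days 5 and 7. Hmox1 averaged 1.51-fold higher in knockout (95% interval 1.18 to 1.94, log2 difference 0.59 ± 0.15 SE; limma unadjusted p = 0.00600, adjusted p = 0.0822). The difference passed the threshold in 3 of 14 alternative treatments of these values. The limma adjusted p was 0.0331 with no background correction, 0.0490 with an offset of 50 and 0.0316 with a trended and robust variance prior. In the others it did not pass, and the highest adjusted p was 0.365. The macrophage and adipocyte marker lists were higher in the same knockout cultures: the summed normalized intensity of the 17 macrophage genes ran from 17251 to 128496 in knockout and from 4659 to 50224 in wildtype, and that of the 16 adipocyte genes from 33114 to 107543 in knockout and from 28661 to 65964 in wildtype. Of the 17 macrophage genes 13 to 17 were above background on a knockout array and 13 to 15 on a wildtype array, and of the 16 adipocyte genes 10 to 16 and 8 to 15. The part of these cells in the values of Hmox1, and in those of the genes below, was not tested.

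Nqo1 encodes a quinone reductase and is a standard readout of NRF2. Its probe with signal, ILMN_2726371, read 7.91, 6.69, 6.50 and 6.16 in knockout on days 3, 5, 7 and 9, and 8.55, 6.17, 7.10 and 6.49 in wildtype. Both genotypes were highest on day 3 and lower on every later day. The genotypes crossed: knockout was higher on day 5 by 0.51 and lower on days 3, 7 and 9 by 0.65, 0.60 and 0.33. The mean difference of Nqo1, -0.27 ± 0.22 (SE; limma adjusted p = 0.566), was near the size of its error, and it ran from -0.14 without day 3 to -0.53 without day 5. The other probe of Nqo1, ILMN_2766386, was above background on no array, with log2 intensities from 4.64 to 5.00, and so could not be set against the first.

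Glutathione is built by glutamate-cysteine ligase, whose catalytic subunit is Gclc and whose modifier subunit is Gclm, and both are classical NRF2 targets. Gclm read 10.61, 10.67, 11.11 and 11.02 in knockout and 10.75, 10.38, 10.26 and 10.72 in wildtype, in the order of days. Knockout was higher on days 5, 7 and 9 and lower on day 3, and the ranges overlapped. The difference of Gclm was widest on day 7, at 0.84, and averaged 0.32 ± 0.18 (SE; limma adjusted p = 0.381), or 0.15 without day 7 and 0.48 without day 3. Gclc was hardly measured: its probe was above background on 1 of 4 knockout arrays, that of day 7, and on 1 of 4 wildtype arrays, that of day 3. On the 8 arrays Gclc stayed between 5.06 and 6.43, and its mean difference of -0.18 ± 0.24 (SE; limma adjusted p = 0.739) therefore sets mostly background values against each other and became 0.07 without day 3.

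Txnrd1 encodes the cytosolic thioredoxin reductase, a selenoprotein that keeps thioredoxin reduced. Its probe was above background on 3 of 4 arrays in each genotype, and day 5 was the exception in both. Txnrd1 read 6.62, 5.66, 7.14 and 6.56 in knockout and 6.82, 5.67, 6.15 and 6.45 in wildtype. Both genotypes had their lowest value on day 5, and they came apart on day 7 alone, where knockout was higher by 0.99. The mean difference was 0.22 ± 0.22 (SE; limma adjusted p = 0.635), and without day 7 it was -0.03.

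The 3 superoxide dismutases, which work in different places, had differences of both signs. Sod1, the copper and zinc enzyme of the cytosol, read 13.19, 13.45, 13.83 and 13.82 in knockout and 12.93, 12.95, 13.05 and 13.55 in wildtype. Knockout was higher on each day, most on day 7, and the ranges overlapped because the wildtype value of day 9 was above the knockout values of days 3 and 5. Sod1 averaged 1.37-fold higher in knockout (95% interval 1.07 to 1.75, log2 difference 0.45 ± 0.15 SE; limma unadjusted p = 0.0202, adjusted p = 0.156). The difference of Sod1 passed in 1 of 14 alternative treatments, with the trended and robust variance prior (limma adjusted p = 0.0331). The highest adjusted p among them was 0.505.

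Sod3, the secreted superoxide dismutase of the extracellular space, read 9.95, 9.55, 9.92 and 9.29 in knockout and 10.56, 9.84, 10.21 and 9.83 in wildtype. Knockout was lower on each day, by 0.61, 0.29, 0.29 and 0.54, and in both genotypes days 5 and 9 were below days 3 and 7. On day 3 the raw intensity of Sod3 was 1165.9 in knockout and 1168.9 on the dimmer wildtype array. Sod3 averaged 1.35-fold lower in knockout (95% interval 1.08 to 1.69, log2 difference -0.43 ± 0.14 SE; limma unadjusted p = 0.0167, adjusted p = 0.141). No alternative treatment that was run brought the difference of Sod3 past the threshold. Endothelial and mesothelial markers were lower in knockout too: the difference was below 0 for 8 of 8 endothelial genes, whose summed normalized intensity ran from 3490 to 5069 in knockout and from 4785 to 7290 in wildtype, and for 5 of 6 mesothelial and epithelial genes, with sums from 404 to 5173 and from 862 to 8664. Of the endothelial genes 8 were above background on every knockout array and 7 to 8 on a wildtype array, and of the mesothelial genes 3 to 6 and 5 to 6, and their part in the values of Sod3 was not tested.

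Sod2, the manganese enzyme of mitochondria, which inflammatory signals also induce in many cells, was nearly level in knockout at 13.37, 13.34, 13.35 and 13.33. In wildtype Sod2 read 13.52, 13.16, 13.12 and 12.98, lower on each later day after normalization. Its raw wildtype intensities were 7643.9, 10202.1, 9740.9 and 7933.7, lowest on day 3, where the whole array was dimmest. The part that scaling of that array had in this course was not tested. The difference thus went through -0.15, 0.18, 0.23 and 0.35 on days 3, 5, 7 and 9, with a mean of 0.15 ± 0.14 (SE; limma adjusted p = 0.633), or 0.25 without day 3 and 0.09 without day 9. Gpx3, the glutathione peroxidase that cells secrete into plasma, varied least of the 9 after quantile normalization, over 0.25 log2 units in all. Its raw intensities ran from 17734 to 28076. It read 14.69, 14.59, 14.65 and 14.51 in knockout and 14.56, 14.46, 14.44 and 14.46 in wildtype, higher in knockout on each day by 0.05 to 0.21. The mean difference of Gpx3 was 0.13 ± 0.13 (SE; limma adjusted p = 0.637) and turned to -0.02 when arrays were scaled by their medians.

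**Figure D2:**
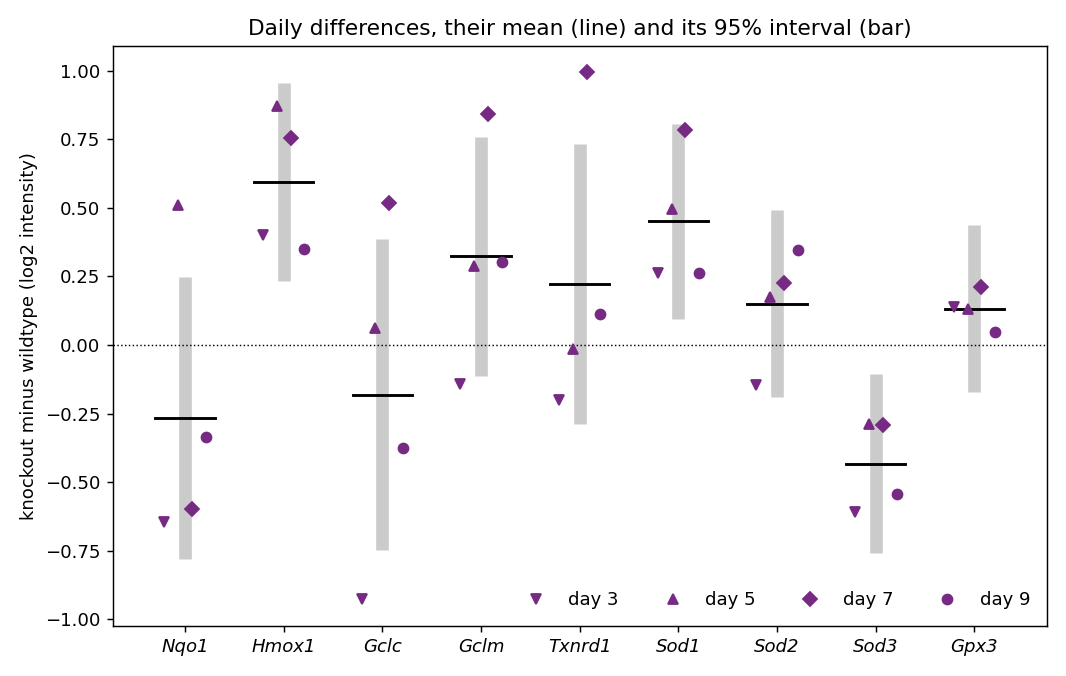
Knockout minus wildtype difference in log2 intensity for each measured gene: 1 symbol per day, the mean of the 4 days as a black line and its 95% interval from limma, unadjusted, as a grey bar. The bars of Hmox1 and Sod1 lie above 0 and that of Sod3 below it, and none of the 9 genes passed after adjustment over all genes.

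The median genotype difference of the 9 genes stood at -0.15 for day 3, 0.18 for day 5, 0.52 for day 7 and 0.11 for day 9. The median of all tested genes stayed between -0.04 and 0.03, but quantile normalization holds it near 0 beforehand. A median of 9 genes is not held in this way. The difference in slope between the genotypes, given below, passed for none of the 9. On day 3 knockout was higher for 3 of 9 genes (Hmox1, Sod1 and Gpx3), against 53.6% of all tested genes. On day 7 it was higher for 7 of 9, all but Nqo1 and Sod3, against 46.3%. No gene of the 9 was 2-fold apart on any day, where that share of all tested genes was 5.46% for day 3, 9.01% for day 5, 10.8% for day 7 and 9.28% for day 9. These single-day values set 1 array against 1 and have no test. On day 3 the wildtype array was the one with the lowest mean raw intensity, and the part of its scaling in that day's values was not tested.

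Change over differentiation was fitted as a slope per day common to both genotypes. Sod1 alone passed among the 9, rising by 0.11 ± 0.03 log2 units per day (SE, 8 arrays; limma adjusted p = 0.0480), where 16.8% of all tested genes passed. At an unadjusted p under 0.05 there were 3 of the 9 (Sod1, Nqo1 and Hmox1), against 32.7% of all tested genes. Within the genotypes its slope was 0.11 in knockout and 0.10 in wildtype, and day 9 stood above day 3 by 0.63 in both. The call of Sod1 is a narrow one: it was lost in each of 12 refits that left out 1 day or 1 array, with limma adjusted p from 0.0581 to 0.347 and slopes from 0.09 to 0.12. Median scaling gave a slope of 0.08 (adjusted p = 0.188) and adjustment over every probe gave an adjusted p of 0.0560.

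Nqo1 had the steepest slope of the 9, -0.27 ± 0.08 per day (SE; limma adjusted p = 0.0580), with -0.27 in knockout and -0.26 in wildtype. Its course is a drop rather than a line: on day 9 it stood lower than on day 3 by 1.75 in knockout and 2.06 in wildtype, at least 2-fold in both genotypes, as in 3.65% of all tested genes. None of the 9 stood at least 2-fold higher on day 9 in both, as 5.18% of all tested genes did. Without day 3 the slope of Nqo1 was -0.03. When day was fitted as a factor, which allows any shape, Nqo1 was the one gene of the 9 that changed with day (limma adjusted p = 0.0318), where 7.67% of all tested genes did. The slope of Nqo1 also passed with no background correction (slope -0.14, adjusted p = 0.0483), an offset of 50 (0.0420), median scaling (0.0314) and the trended and robust prior (0.0369). Txnrd1, low on day 5 in both genotypes, had an adjusted p of 0.168 in the fit with day as a factor. The share of all probes above background was lowest on day 5 in each genotype, and its part in these values was not tested.

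Of the other genes, Hmox1 had a slope of 0.09 ± 0.04 per day (SE; limma adjusted p = 0.137) and Sod3 of -0.09 ± 0.04 (0.189), each with the same sign in knockout and wildtype. The slope of Sod2 was -0.01 in knockout and -0.08 in wildtype, and that of Gclm 0.08 in knockout and -0.01 in wildtype. Gclc, Txnrd1 and Gpx3 had common slopes of -0.09, 0.02 and -0.02, and none of these passed. The difference in slope between the genotypes passed for none of the 9, with limma adjusted p of 0.907 to 0.998. It passed for no gene in the whole table either, and at an unadjusted p under 0.05 it counted 0 of the 9 against 6.1% of all tested genes. The intervals are wide: for Sod2 the knockout slope could lie from 0.06 below to 0.21 above the wildtype slope.

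**Figure D3:**
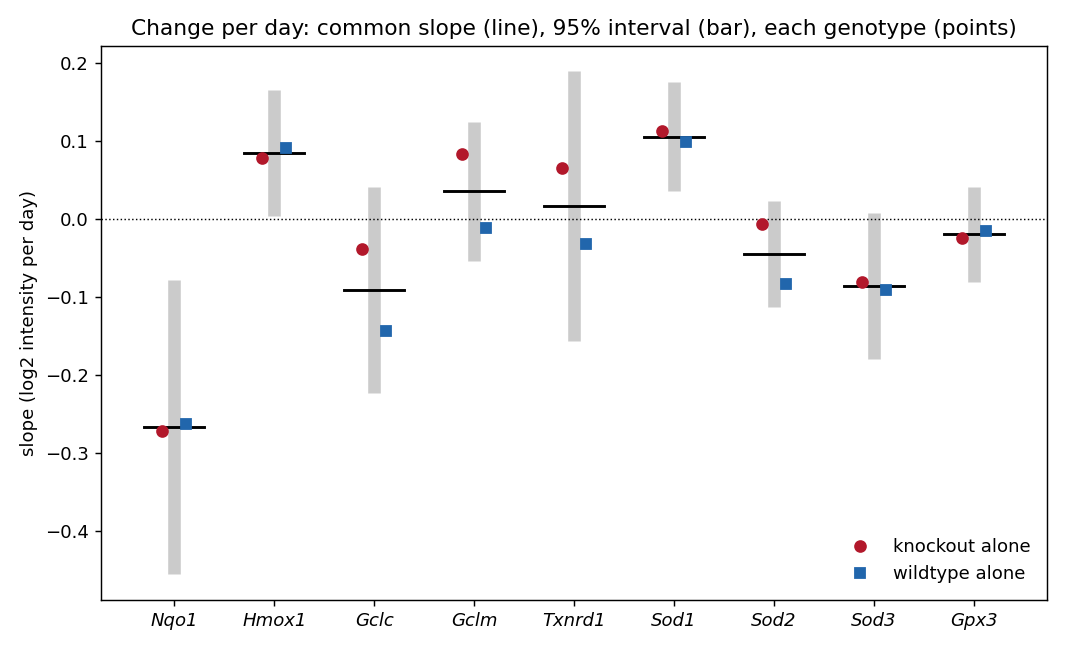
Slope in log2 intensity per day for each measured gene: the slope common to both genotypes as a black line, its 95% interval from limma, unadjusted, as a grey bar, and the slope within each genotype as a red circle (knockout) and a blue square (wildtype). Sod1 has the highest slope and Nqo1 the lowest, and the points of the genotypes lie close together for both.

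The genes whose pattern over the 8 arrays was most like that of each well-measured gene were found by Pearson correlation among all tested genes, clone and predicted names aside. For Hmox1 these were Rbp4 (r = 0.973), Pcca (0.971) and Akr1cl (0.971), and for Sod1 Ctss (0.979), Fam13a (0.978) and Was (0.977). Nqo1 was nearest to Tuba1a (0.982), Strada (0.974) and Umps (0.972), and Gclm to Ndufs7 (0.988), Mto1 (0.986) and Atf3 (0.966). For Sod2 they were Fgf1 (0.975), Atg7 (0.962) and Ppp6r3 (0.959), for Sod3 St7 (0.972), Actr1a (0.968) and Mettl9 (0.968), and for Gpx3 H2-Aa (0.977), Tmem144 (0.961) and Brd8 (0.945). None of the 7 genes was among the nearest of another, but with 3 kept for each out of so many genes this says little about them. Of the 9757 genes compared with each, 317 were over 0.9 with Sod1, 198 with Hmox1 and 123 with Nqo1. The counts were 50 with Gclm, 37 with Sod3, 25 with Sod2 and 11 with Gpx3. A high correlation on 8 arrays is thus a description of pattern, and what the genes share was not tested.

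Of the 11 listed regulators of the pathway 9 were tested, and none passed for genotype or for slope. Over all tested genes the shares that passed were 4.85% and 16.8%. Nfe2l2, which encodes NRF2 itself, averaged 8.90 in knockout and 9.01 in wildtype (difference -0.12 ± 0.21 SE; limma adjusted p = 0.812), and Keap1, its inhibitor, 10.48 and 10.48 (-0.01 ± 0.18, 0.987). Bach1, the repressor of Hmox1 and other NRF2 targets, averaged 7.84 in knockout and 8.58 in wildtype and was lower in knockout on 4 of 4 days. Its difference of -0.74 ± 0.18 (SE) had a limma adjusted p of 0.0729, and it passed with no background correction (0.0496), an offset of 50 (0.0469) and median scaling (0.0460). It did not pass on the deposited processed values (limma adjusted p = 0.177) or on those without the genes at their floor (0.0986). Nor did it pass with any 1 day left out (0.0549 to 0.268).

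Around the 10 genes, 117 further genes of redox defence and oxidant production were listed, of which 107 had a probe and 92 were tested. By genotype 2 of the 92 rose and 1 fell in knockout, against 2.74% and 2.11% of all tested genes, and their median difference was 0.11, against -0.02 over all. Cat, the peroxisomal enzyme catalase that destroys hydrogen peroxide, read 10.48, 11.52, 12.44 and 11.94 in knockout and 9.74, 9.46, 9.98 and 10.28 in wildtype, a 3.31-fold rise with no overlap (log2 difference 1.73 ± 0.27 SE; limma adjusted p = 0.0181). Mgst3, a microsomal glutathione transferase, was 1.63-fold higher (0.71 ± 0.14, adjusted p = 0.0346), and higher in knockout on 4 of 4 days. The calls of Cat and Mgst3 were each lost without day 5, 7 or 9 (Cat 0.0794, 0.0595 and 0.0879; Mgst3 0.158, 0.114 and 0.135), and that of Mgst3 with median scaling (0.0507). Esd, an esterase that releases glutathione from S-formylglutathione, was 4.42-fold lower in knockout (-2.14 ± 0.21, adjusted p = 0.00297), with 10.00, 9.65, 10.04 and 9.94 in knockout and 12.82, 11.84, 11.60 and 11.95 in wildtype. On the deposited processed values all 3 calls were lost, at limma adjusted p of 0.129 (Cat), 0.0716 (Mgst3) and 0.0671 (Esd), and with the genes at the floor of that matrix set aside, all 3 passed (0.0287, 0.0461 and 0.00700).

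The groups of these genes are described by their counts and medians, with no test of a group. For comparison, 60 of the 92 genes and 47.2% of all tested genes had a difference above 0. All 8 measured heme and iron genes had a difference above 0, with a median of 0.44, and none passed. Among them were the biliverdin reductases Blvrb (0.68 ± 0.17 SE, limma adjusted p = 0.0729) and Blvra (0.51 ± 0.17, 0.160), which act on the product of heme oxygenase. Of 17 thioredoxin, peroxiredoxin and glutaredoxin genes 15 were above 0 (median 0.14), and of 8 genes that supply NADPH 7 were (median 0.32), with none called. The 17 glutathione transferases split, 9 above 0 and 8 below (median 0.01), with Mgst3 as the one called. Both metallothioneins were below 0, Mt1 at -0.15 ± 0.14 and Mt2 at -1.29 ± 0.31 (adjusted p = 0.620 and 0.0677). Of 7 further genes that make or supply glutathione 3 were above 0, of 5 glutathione peroxidases 2, and of 6 genes whose products make oxidants 3, and no gene of these groups passed for genotype. Of the 9 regulators 4 were above 0, and of 11 quinone, carbonyl and drug handling genes 7 were, with Esd as the one called. The macrophage and adipocyte lists were higher in the same knockout cultures, as given beside Hmox1.

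**Figure D4:**
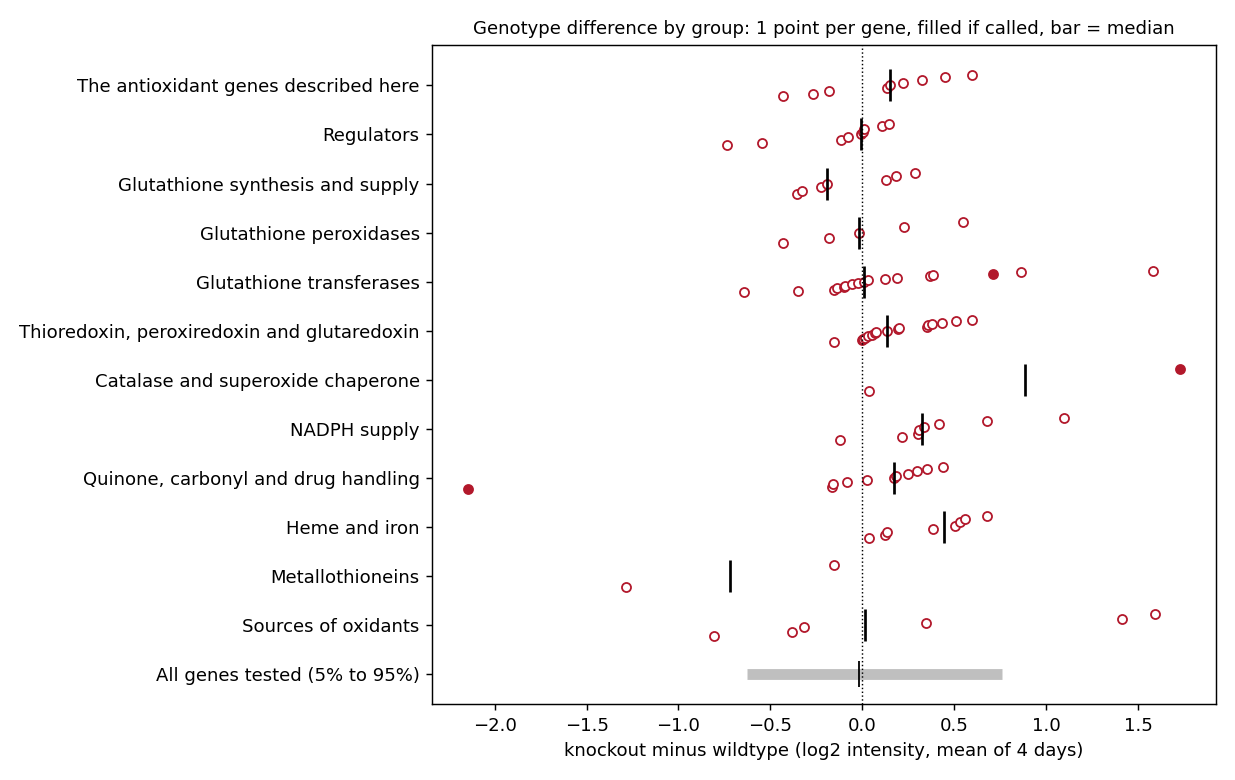
Knockout minus wildtype difference (log2 intensity, mean of 4 days) of the 9 measured antioxidant genes and of 92 further genes by group, 1 point per gene, filled where the limma adjusted p was under 0.05; vertical marks are medians, and the grey bar at the bottom spans from -0.63 to 0.76, the middle 90% of all tested genes. Cat and Mgst3 are filled to the right of 0 and Esd to its left.

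With day, 16 of the 92 genes rose and 2 fell, against 8.54% and 8.25% of all tested genes. The steepest to rise were Ncf4, a subunit of the phagocyte NADPH oxidase that makes superoxide (0.51 ± 0.08 per day SE, limma adjusted p = 0.00613), Mgst2 (0.46 ± 0.06, 0.00265) and Me1, the cytosolic malic enzyme that supplies NADPH for lipid synthesis (0.43 ± 0.08, 0.00952). Gstp1 (-0.18 ± 0.04, 0.0161) and Nqo2, a relative of Nqo1 (-0.13 ± 0.03, 0.0263), were the genes that fell. Nqo2 lost its call when any 1 day was left out (adjusted p of 0.0652 to 0.370), Gstp1 without day 3, 7 or 9 (0.324, 0.0588 and 0.129), Ncf4 without day 9 (0.0813) and Me1 without day 3 (0.104). By group, 3 of 8 heme and iron genes rose, 3 of 17 thioredoxin, peroxiredoxin and glutaredoxin genes, 2 of 8 that supply NADPH, 3 of 6 sources of oxidants and none of the 5 glutathione peroxidases, while of 17 glutathione transferases 3 rose and 1 fell. Ncf4 is a gene of phagocytes. The summed intensity of the 17 macrophage genes ran from 17251 on day 3 to 128496 on day 9 in knockout. In wildtype it ran from 4659 to 50224 over the same days. The part of such cells in the rise of Ncf4 was not tested. Without day 3, 2 of the 92 passed for slope and 15 for genotype, where the counts over all 9758 tested genes were 189 and 1082.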

How the data were processed

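Biotin-labelled cRNA of 8 cultures was read on Illumina arrays, per the labels' protocols. The deposited raw table holds a bead intensity per probe, with no background subtracted, and a detection p-value that the authors deposited beside it. A deposited matrix of processed intensities, lowest value 20, was an alternative, whose normalization no label or header describes. From the raw table, limma 3.58.1 (R 4.3.3) computed expression by neqc (normexp from detection p-values, offset 16, quantile normalization, log2). To be kept, a probe needed 2 or more arrays with detection p below 0.05, and a gene was read by its brightest such probe. Of 25697 probes, 23978 had 1 gene symbol in the platform annotation, and none had several. Fits were genotype with day as a factor (3 residual degrees of freedom), a day slope with genotype (5) and their interaction (4), two-sided, with Benjamini-Hochberg adjustment over 9758 genes. The first fit takes any drift of the genotype difference over days as error. The steps were tested on simulated data.

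The genes and lists were chosen with earlier results of these data known. All 10 genes are named, with the 3 called genes of largest change per direction from the wider list, its regulators Nfe2l2, Keap1 and Bach1, and the 3 nearest patterns. The further group examples (Blvrb, Blvra, Mt1 and Mt2) were chosen after their values were seen. The number of arrays limits the precision.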

Additional observations from a re-analysis of the deposited data

How the results depend on the processing

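Over the 9 genes, the count called for genotype (0) was 1 with no background correction or an offset of 50 (Hmox1) and 2 with a trended and robust variance prior (Hmox1 and Sod1), and stayed 0 with each day left out. The count for slope (1) was 2 with no background correction, an offset of 50 or that prior, was 0 when every probe was adjusted for or on the deposited matrix without the genes at its floor (an alternative chosen after seeing the data), and ran from 0 to 1 with 1 day or array left out. Over the 92 further genes, the genotype count (3), 2 higher and 1 lower, was 13 with no background correction (8 and 5), 11 with an offset of 50 (6 and 5), 10 with median scaling (5 and 5), 14 with the prior (9 and 5), 1 with no day term (lower) and 0 on the deposited matrix, and 1 to 15 with a day left out (15 without day 3, 13 of them higher, and 1, lower, without day 7 or day 9). The slope count (18) was 6 with day as a factor and 2 to 18 with 1 day or array left out. No slope difference was called in any setting for the 9 or the 92. Over all genes the genotype count (473) was 647 with no background correction, 624 with an offset of 50, 789 with median scaling, 771 with the prior and 1082 without day 3, and it was 161 to 199 without day 5, 7 or 9 and 93 on the deposited matrix, where many genes are constant at the floor, and the split of higher and lower calls (267 and 206) was 25 and 90 with no day term; the slope split (833 rising and 805 falling) was 794 and 465 on that matrix without the genes at its floor. No scaling moved the median of all genes by over 0.1, but quantile normalization and median scaling each align the arrays, so a small shift was built in.

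Among estimates that did not pass, some changed sign. Gpx3 by genotype was -0.025 with median scaling. Slope differences changed sign for Nqo1 (0.025 with no background correction, 0.011 with an offset of 50), for Gpx3 (0.0072 with median scaling, 0.0011 on the deposited matrix) and for Sod1 (-0.0022 on that matrix). With 1 day or array left out, the genotype difference ran from -0.41 to 0.067 for Gclc and from -0.034 to 0.36 for Txnrd1, and the slope from -0.12 to 0.0074 for Gclc and from -0.033 to 0.21 for Txnrd1. Slope differences then ran from -0.11 to 0.36 for Gclc, -0.35 to 0.13 for Nqo1, -0.13 to 0.095 for Hmox1, -0.13 to 0.30 for Txnrd1, -0.059 to 0.13 for Sod1, -0.080 to 0.082 for Sod3 and -0.025 to 0.019 for Gpx3. The cause was not tested. Hmox1, Sod1 and Sod3 kept their direction by genotype in all 14 alternatives. Signal over background limits Gclc and Txnrd1, and the later days of Nqo1. The log2 intensity of Nqo1 fell to 6.16 in knockout and 6.17 in wildtype, where the lowest value above background on an array was 5.49 to 5.84.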
